A study of Mus musculus with 12 samples.

Results

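PIWI-interacting RNAs (piRNAs) are small RNAs of the germ line that silence transposable elements. Their precursors are cut and trimmed on the mitochondrial surface and in germ granules, dense bodies of RNA and protein beside the nucleus. There the PIWI proteins are loaded with piRNAs. Tudor domain proteins hold this machinery together by binding methylated arginines of the PIWI proteins. In fetal and newborn male germ cells, nuclear PIWI complexes also direct DNA methylation to young transposons. Acetylation of lysine 36 of histone H3 (H3K36ac) is a mark found mainly at active promoters, and SIRT7 is a deacetylase that removes it.

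A list of 34 mouse genes of this pathway was examined in 6 lists of H3K36ac peaks, beside all 21468 protein-coding gene starts of known strand. The genes were chosen by name: 3 encode PIWI proteins, 10 piRNA biogenesis enzymes and cofactors, 8 Tudor domain proteins, 2 the arginine methylation complex, 4 nuclear silencing effectors, 5 DNA methylation factors and 2 transcriptional regulators of piRNA genes. The samples were spermatogonia-enriched cells from male mice on a 129S1/Sv background at postnatal day 5 (Pnd 5), with 3 WT samples and 3 *Sirt7*-/- samples (labelled S7KO), numbered 2, 3 and 4 in each genotype. Each sample came from a different mouse, used 50000 cells and was paired with its own input library. No Cre driver or germ-line restriction of the deletion is described for these mice. A gene was counted as called in a sample when a peak of that sample's list shared at least 1 base with the 3000 bp on either side of its start.

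The lists differed in length between the genotypes, with 906, 64 and 294 peaks in WT replicates 2, 3 and 4 and 2840, 2045 and 2591 in the *Sirt7*-/- replicates of the same numbers. The deposited lists hold no read counts. Clean reads per library are stated for the study, but the number left after filtering is not given in the sources used here, and a missing peak does not show that the mark was missing. In these bulk samples, fewer cells carrying the mark and less mark per cell cannot be told apart. Among markers of the cell types a testis preparation could hold, 4 of 10 spermatogonial genes (*Zbtb16*, *Gfra1*, *Etv5* and *Uchl1*) were called, each in 1 *Sirt7*-/- sample, and without replicate 2 there was 1, *Etv5*. Of 6 Sertoli cell genes, *Sox9* was called in 1 *Sirt7*-/- sample, 0 of 6 Leydig and peritubular genes and 0 of 3 immune genes were called, and no marker was called in WT. Over all protein-coding starts, 19.3% were called in any *Sirt7*-/- sample, 15.2% without replicate 2 and 5.12% in any WT sample. With so few markers, these counts do not tell the cell types apart.

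Promoter sequences are given for called and uncalled starts, which differed in CpG content. They were taken from RefSeq (GRCm38.p6, the assembly behind mm10), run from 250 bases before to 50 bases after a listed start, and are written 5′ to 3′ on the strand of the gene. Capitals mark matches, on either strand, to CACGTG (the E-box bound by MYC and related factors), to GGCGGGA (E2F) or to 4 forms of the MYB site, which are TAACGG or TAACTG and CAACGG or CAACTG. The first is *Wdr77*, called in all 3 *Sirt7*-/- samples, at chr3:105959248-105959547 on the plus strand. *Fkbp6* (chr5:135349995-135350294, minus strand) and *Tdrd5* (chr1:156303299-156303598, minus strand) are shown because a peak covered 300 and 290 of their 300 bases, and were chosen after their values were seen. *Piwil1* (chr5:128735996-128736295, plus strand), *Piwil4* (chr9:14740623-14740922, minus strand) and *Mov10l1* (chr15:88982744-88983043, plus strand) are the contrast, with no peak in any sample.
Wdr77: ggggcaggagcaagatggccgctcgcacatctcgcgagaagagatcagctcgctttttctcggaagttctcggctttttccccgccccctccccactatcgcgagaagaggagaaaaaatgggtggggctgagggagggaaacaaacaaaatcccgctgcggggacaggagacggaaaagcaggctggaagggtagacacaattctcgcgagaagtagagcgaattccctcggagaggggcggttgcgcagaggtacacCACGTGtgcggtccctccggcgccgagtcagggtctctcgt
Fkbp6: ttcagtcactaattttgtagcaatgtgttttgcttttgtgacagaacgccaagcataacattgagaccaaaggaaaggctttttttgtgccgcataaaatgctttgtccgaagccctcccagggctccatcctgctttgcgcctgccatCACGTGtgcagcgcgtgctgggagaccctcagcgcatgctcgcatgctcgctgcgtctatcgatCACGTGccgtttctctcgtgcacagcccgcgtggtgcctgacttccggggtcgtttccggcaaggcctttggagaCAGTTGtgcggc
Tdrd5: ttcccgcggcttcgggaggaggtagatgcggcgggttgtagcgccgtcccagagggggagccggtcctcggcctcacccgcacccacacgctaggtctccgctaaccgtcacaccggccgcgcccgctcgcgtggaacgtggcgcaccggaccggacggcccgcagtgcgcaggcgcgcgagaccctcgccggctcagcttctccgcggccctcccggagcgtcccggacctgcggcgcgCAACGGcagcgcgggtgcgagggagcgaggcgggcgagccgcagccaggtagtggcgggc
Piwil1: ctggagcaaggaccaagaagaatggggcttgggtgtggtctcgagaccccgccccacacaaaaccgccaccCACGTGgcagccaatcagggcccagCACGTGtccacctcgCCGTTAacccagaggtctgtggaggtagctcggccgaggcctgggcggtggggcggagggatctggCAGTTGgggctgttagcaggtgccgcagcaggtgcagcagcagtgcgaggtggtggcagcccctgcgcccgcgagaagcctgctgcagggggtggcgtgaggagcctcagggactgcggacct
Piwil4: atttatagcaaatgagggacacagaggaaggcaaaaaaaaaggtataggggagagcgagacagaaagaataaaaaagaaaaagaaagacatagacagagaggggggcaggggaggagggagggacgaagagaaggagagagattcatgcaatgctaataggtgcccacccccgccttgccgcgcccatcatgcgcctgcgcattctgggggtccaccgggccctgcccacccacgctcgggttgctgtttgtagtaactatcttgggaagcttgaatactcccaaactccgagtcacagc
Mov10l1: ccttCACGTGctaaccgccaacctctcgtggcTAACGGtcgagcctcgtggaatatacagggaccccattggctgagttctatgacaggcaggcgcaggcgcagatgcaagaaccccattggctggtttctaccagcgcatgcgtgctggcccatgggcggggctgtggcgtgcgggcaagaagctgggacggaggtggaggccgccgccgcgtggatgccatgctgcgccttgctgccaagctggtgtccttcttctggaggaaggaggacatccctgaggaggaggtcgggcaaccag

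No member was called in any of the 3 WT samples, and 8 of 34 were called in at least 1 *Sirt7*-/- sample (23.5%, exact 95% confidence interval 10.7% to 41.2%). Over all protein-coding starts, 5.12% were called in at least 1 WT sample and 19.3% in at least 1 *Sirt7*-/- sample, so the share of the list lay near the background. *Sirt7*-/- replicate 2 had a peak at 7 members (*Wdr77*, *Morc2a*, *Ddx39a*, *Exd1*, *Fkbp6*, *Tdrd1* and *Tdrkh*), replicate 3 at 3 (*Wdr77*, *Morc2a* and *Tdrd5*) and replicate 4 at 2 (*Wdr77* and *Ddx39a*). The mean was 4 ± 2.65 members (SD, n = 3) against 0 in each of the 3 WT samples. Replicate 2 carried 4 of the 8 calls alone (*Exd1*, *Fkbp6*, *Tdrd1* and *Tdrkh*), and without it 4 members were called in a *Sirt7*-/- sample, against 15.2% of protein-coding starts. With only the 64 best peaks of every sample, to make the lists equally long, no member was called in any sample, and 0.778% of protein-coding starts were called in any *Sirt7*-/- sample and 0.843% in any WT sample. Fewer than 1 of 34 genes would be called at those rates, so that setting says nothing about the members. The remaining 26 members, among them every PIWI gene and every DNA methylation gene, had no peak within the window in any sample. With 3 and 5 genes, these groups were too small to show a rate below the background.

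**Figure D1:**
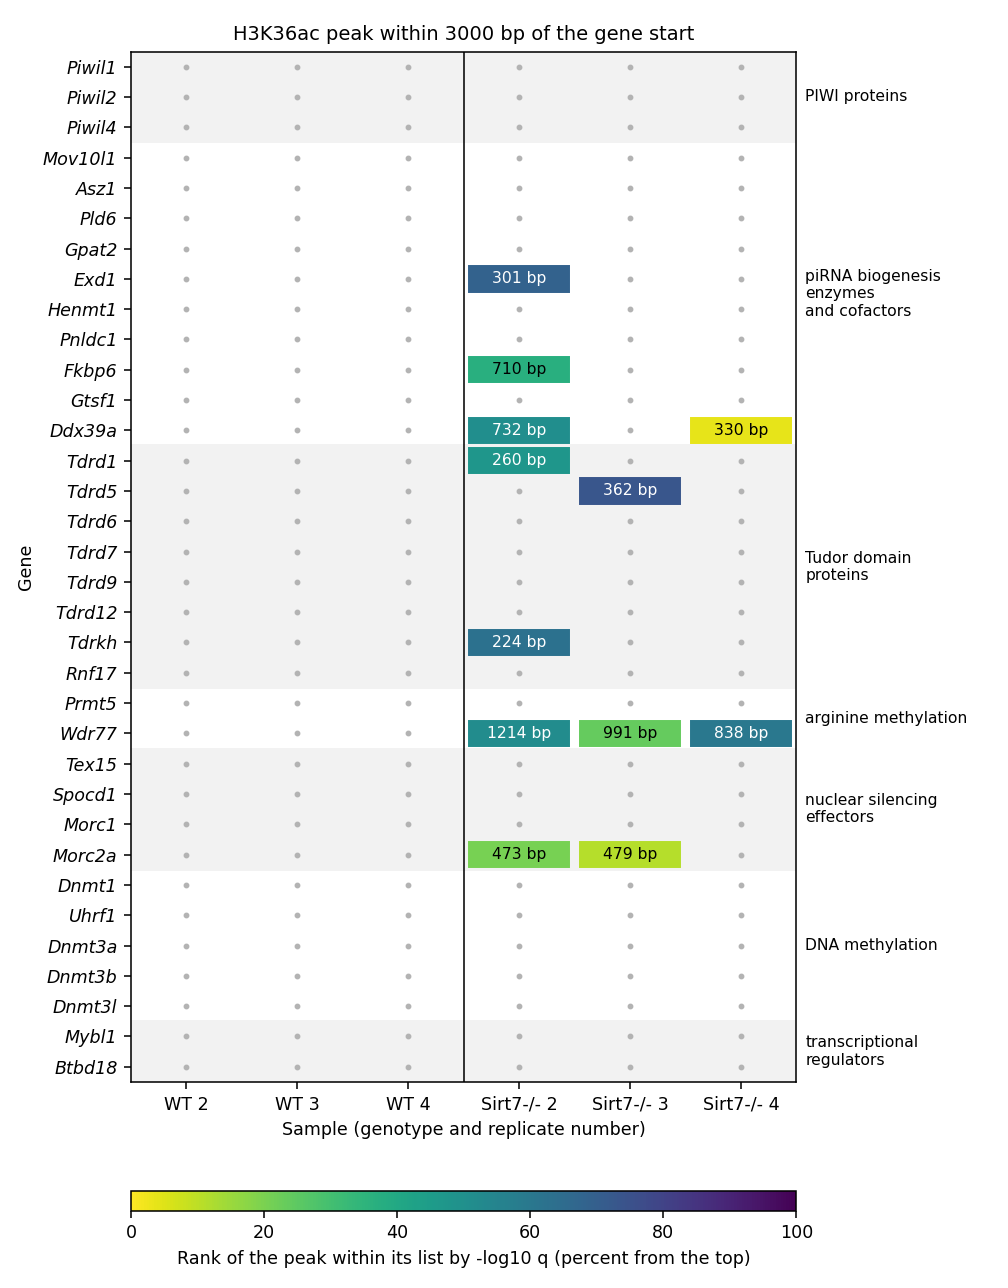
Each row is a listed gene, grouped by role, and each column a sample. Filled cells mark a peak within 3000 bp of the gene start, with its width in bp and, as colour, its rank within its own list by -log10 q (percent from the top); dots mark no peak. All 12 filled cells are in the *Sirt7*-/- columns, 7 of them in replicate 2.

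Each sample was set beside its own background. In WT, 4.38%, 0.317% and 1.35% of protein-coding starts were called in replicates 2, 3 and 4. At those rates 1.49, 0.108 and 0.459 of 34 members would be called, and 0 were observed in each. A count of 0 of 34 has an exact 95% upper limit of 10.3%, and the limit of 3 counts is 8.82%. Both are above the background of each WT sample, so a lower rate at the members was not detectable in WT. In *Sirt7*-/- samples, 13.2%, 9.73% and 11.7% of protein-coding starts were called in replicates 2, 3 and 4, which corresponds to 4.49, 3.31 and 3.99 of 34 genes. The list had 7 (20.6%, exact 95% confidence interval 8.70% to 37.9%), 3 (8.82%, 1.86% to 23.7%) and 2 (5.88%, 0.720% to 19.7%). The background lay inside all 3 intervals, and the list was above it in replicate 2 and below it in replicates 3 and 4. These intervals cover counting error only.

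**Figure D2:**
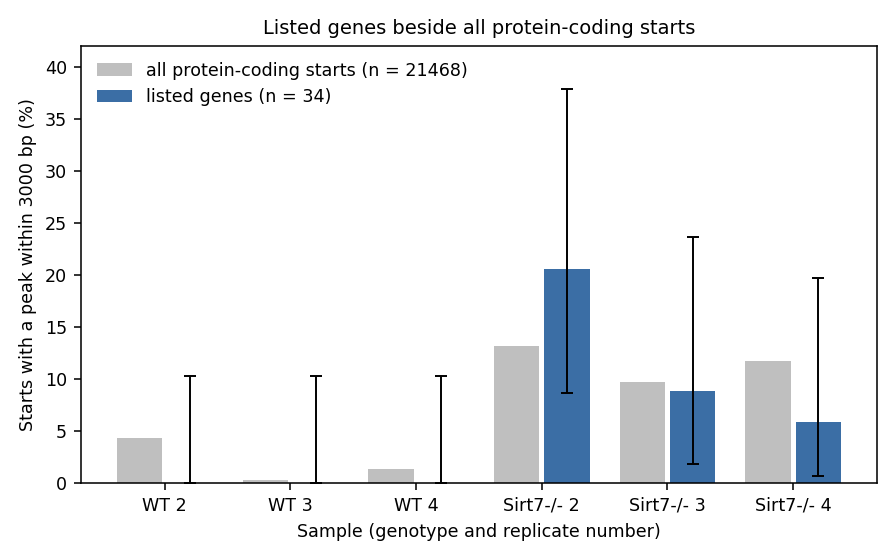
Share of gene starts (%) with a peak within 3000 bp, per sample, for all 21468 protein-coding starts (grey) and the 34 listed genes (blue), with exact 95% confidence intervals for the listed genes. The interval of the listed genes contains the grey value in each of the 6 samples, and the blue bars of the 3 WT samples are at 0.

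Every *Sirt7*-/- sample and none of the WT samples had a peak at 1 member, *Wdr77* (2.94% of the list, against 2.45% of protein-coding starts). With 2 or 3 *Sirt7*-/- samples and none in WT there were 3 members, *Wdr77*, *Morc2a* and *Ddx39a* (8.82%, against 6.47%), and without *Sirt7*-/- replicate 2 there was 1, *Wdr77*. Neither share stood apart from the background, which lay inside the exact 95% confidence intervals of both (0.0744% to 15.3% and 1.86% to 23.7%). The widest split a single gene can show, called in 3 *Sirt7*-/- samples against 0 WT samples, has a two-sided p of 0.1 by Fisher's exact test. No smaller p is possible with this design, so no gene could reach significance.

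The 12 peaks at members were 224 to 1214 bp wide (median 476), with 3.64- to 5.86-fold signal over input, the authors' ratio within each list. By -log10 q they ranked from 3.71% to 73.3% from the top of their own lists, with a median of 49.3%. Peaks at the listed genes thus ran from near the top to well below the middle of a list.

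*Wdr77* encodes the WD repeat partner of the methyltransferase PRMT5, and together they place the arginine methylation that Tudor proteins recognise. Its peaks were 1214 bp wide in *Sirt7*-/- replicate 2 (rank 1471 of 2840), 991 bp in replicate 3 (rank 481 of 2045) and 838 bp in replicate 4 (rank 1551 of 2591), and it had none in WT replicates 2, 3 and 4. All 3 peaks spanned the start and the whole 300-base promoter printed above. The signal over input was 3.86-, 5.42- and 3.87-fold. The peaks were wide beside those of the 525 protein-coding starts with the same calls, which had a median of 599 bp, and the mean of 1014 bp at *Wdr77* exceeded that of 469 of them. The peaks also spanned the start of *Atp5pb*, a subunit gene of mitochondrial ATP synthase that lies 235 bp away on the opposite strand. By its midpoint the peak was nearer to *Wdr77* in replicates 2 and 3 and nearer to *Atp5pb* in replicate 4, so the peaks cannot be assigned to either gene alone. *Prmt5* itself had no peak in any sample, the nearest being 59.6 kb away.

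*Morc2a*, an ATPase of chromatin compaction that works with the HUSH silencing complex, was called in 2 *Sirt7*-/- samples. It was the only one of 4 nuclear silencing genes with a peak (25%, against 19.3% of protein-coding starts in any *Sirt7*-/- sample). The peak was 473 bp wide in replicate 2 (rank 580 of 2840) and 479 bp in replicate 3 (rank 226 of 2045), with none in *Sirt7*-/- replicate 4 and none in WT (two-sided p = 0.4, Fisher's exact test). In both samples it ended upstream of *Morc2a*, at 177 and 226 bp, and spanned the start of the divergent long non-coding RNA gene *Tug1*, 375 bp from that of *Morc2a*. The midpoints lay 38 and 90 bp from the start of *Tug1* and 413 and 465 bp from that of *Morc2a*, so both peaks were nearer to *Tug1*. *Tex15* and *Spocd1*, which act with nuclear PIWI complexes in transposon methylation, and *Morc1* had no peak, with the nearest ones at 83.0 kb (*Tex15*), 107 kb (*Spocd1*) and 562 kb (*Morc1*).

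Of the 10 biogenesis enzymes and cofactors, 3 were called in any *Sirt7*-/- sample, against 19.3% of protein-coding starts, and without replicate 2 there was 1, against 15.2%. *Ddx39a*, an RNA helicase of nuclear RNA export, had a peak of 732 bp in *Sirt7*-/- replicate 2 (rank 1448 of 2840) and of 330 bp in replicate 4 (rank 96 of 2591), none in replicate 3 and none in WT (two-sided p = 0.4, Fisher's exact test). The peaks began 124 and 78 bp downstream of the start and no other gene start shared them. The peak of replicate 4 stood highest of the 12 within its list, at 5.63-fold over input. *Fkbp6*, a co-chaperone in piRNA loading, was called only in replicate 2, with a 710-bp peak at rank 1043 of 2840. That peak began 1436 bp downstream of the outermost start, the largest distance among the called members, and spanned 2 further RefSeq starts of *Fkbp6*, whose promoter is printed above. The outermost start of *Fkbp6* lies 75 bp from that of *Trim50*, which therefore shares the window. *Exd1*, whose protein takes part in piRNA biogenesis, was called only in replicate 2, with a 301-bp peak at rank 1954 of 2840 that lay 208 bp upstream of the start, beyond the start of the divergent gene *Chp1* 80 bp away. A gene called in 1 *Sirt7*-/- sample and no WT sample has a two-sided p of 1 by Fisher's exact test.

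The biogenesis genes without a peak were *Mov10l1*, the helicase that feeds precursors into the pathway, *Asz1*, *Pld6* and *Gpat2* of the mitochondrial surface, *Pnldc1* and *Henmt1*, which trim and methylate the 3′ ends, and *Gtsf1*, a PIWI cofactor. Their nearest peaks were between 6.19 kb (*Pnldc1*, in WT replicate 2) and 414 kb (*Asz1*) from their starts.

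Among the 8 Tudor domain genes 3 were called (37.5%, against 19.3% of protein-coding starts in any *Sirt7*-/- sample), each in 1 *Sirt7*-/- sample (two-sided p = 1 each, Fisher's exact test). Without replicate 2 there was 1 of 8, against 15.2% of protein-coding starts. *Tdrd1*, which anchors PIWIL2 in the granules between mitochondria, had a 260-bp peak in replicate 2 that began 109 bp downstream of the start (rank 1350 of 2840). *Tdrd5* had a 362-bp peak in replicate 3 that began 634 bp downstream of the outermost start and spanned a further RefSeq start (rank 1499 of 2045). *Tdrkh*, a mitochondrial scaffold for piRNA trimming, had a 224-bp peak in replicate 2, narrower than the other 11, that lay 336 bp upstream (rank 1778 of 2840) and only 48 bp from the start of the divergent non-coding gene *1700040D17Rik*. Replicate 2 thus held the peaks of *Tdrd1* and *Tdrkh* and replicate 3 that of *Tdrd5*, and all were narrower than the median peak of their list (480 bp in replicate 2 and 456 bp in replicate 3). *Tdrd6*, *Tdrd7*, *Tdrd9*, *Tdrd12* and *Rnf17* had no peak, and apart from *Tdrd9* their nearest peaks lay 17.8 kb (*Tdrd12*, at the start of *Nudt19*) to 424 kb (*Tdrd7*) away.

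**Figure D3:**
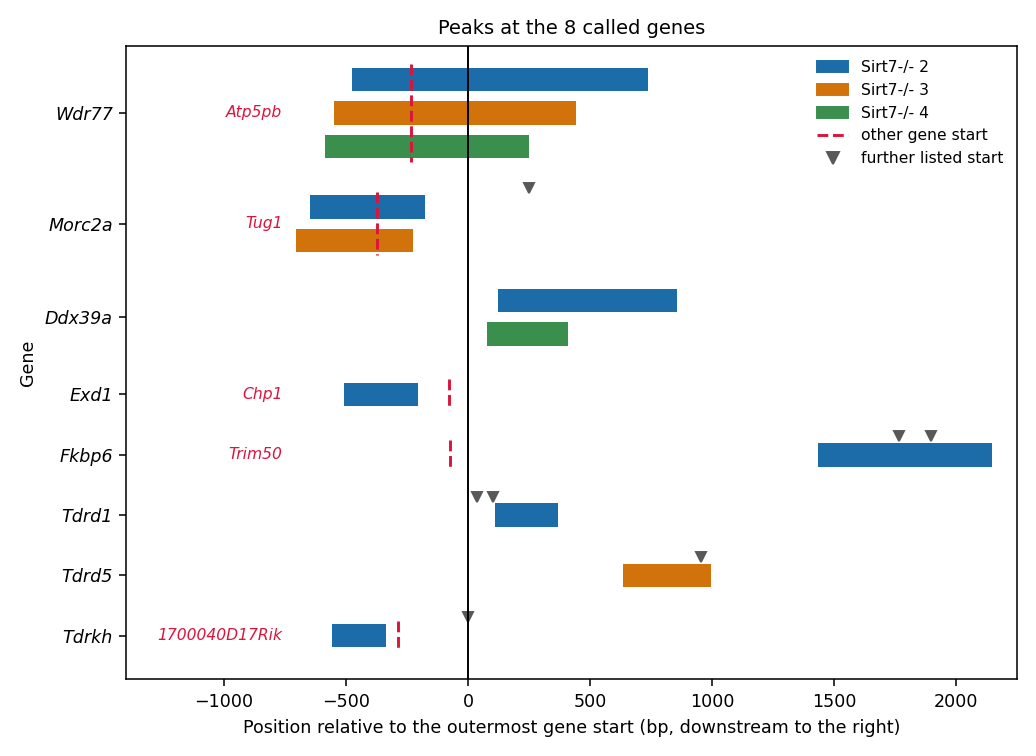
Extent of each peak at the 8 called genes, in bp from the outermost gene start (0) with downstream to the right, coloured by *Sirt7*-/- replicate. Dashed red lines mark starts of other genes that share a peak and triangles mark further RefSeq starts of the same gene; the peaks of *Wdr77* span its own start and that of *Atp5pb*, and those of *Morc2a* span the start of *Tug1* only.

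A peak counted as shared when another gene start lay within 3000 bp of one of its bases. A peak was shared with another gene start at 5 of 8 called members (62.5%), namely *Wdr77*, *Morc2a*, *Exd1*, *Fkbp6* and *Tdrkh*, against 43.2% of the 4136 protein-coding starts called in any *Sirt7*-/- sample. All partners started upstream of the member and on the opposite strand. At 3 of 8 members (37.5%; *Morc2a*, *Exd1* and *Tdrkh*) the midpoint of every peak was nearer to the other start, against 17.2% of all called starts. The midpoint lay downstream of the start in 6 of 12 member peaks, against 77.4% of 7503 pairs of a called protein-coding start and a peak. With 8 genes these shares are a description. *Ddx39a*, *Tdrd1* and *Tdrd5* were the called members with no other start in reach of their peaks.

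Among the 26 uncalled members the distance from the start to the nearest peak of any sample ran from 4.51 kb (*Tdrd9*, a helicase with a Tudor domain) to 562 kb (*Morc1*), with a median of 70.2 kb, and it was over 50 kb at 16. The members just inside and just outside the window were therefore *Fkbp6* at 1436 bp and *Tdrd9* at 4509 bp. The same distances were not measured for other uncalled protein-coding starts. The values therefore do not show whether the members lay farther from a peak than other uncalled genes. Of the PIWI genes, *Piwil2* had its nearest peak 6.30 kb upstream, at the start of *Polr3d*, *Piwil4* at 43.6 kb and *Piwil1* at 283 kb. Of the regulators, *Btbd18*, which licenses transcription of pachytene piRNA clusters, lay 11.1 kb and *Mybl1*, which drives them, 96.7 kb from a peak.

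**Figure D4:**
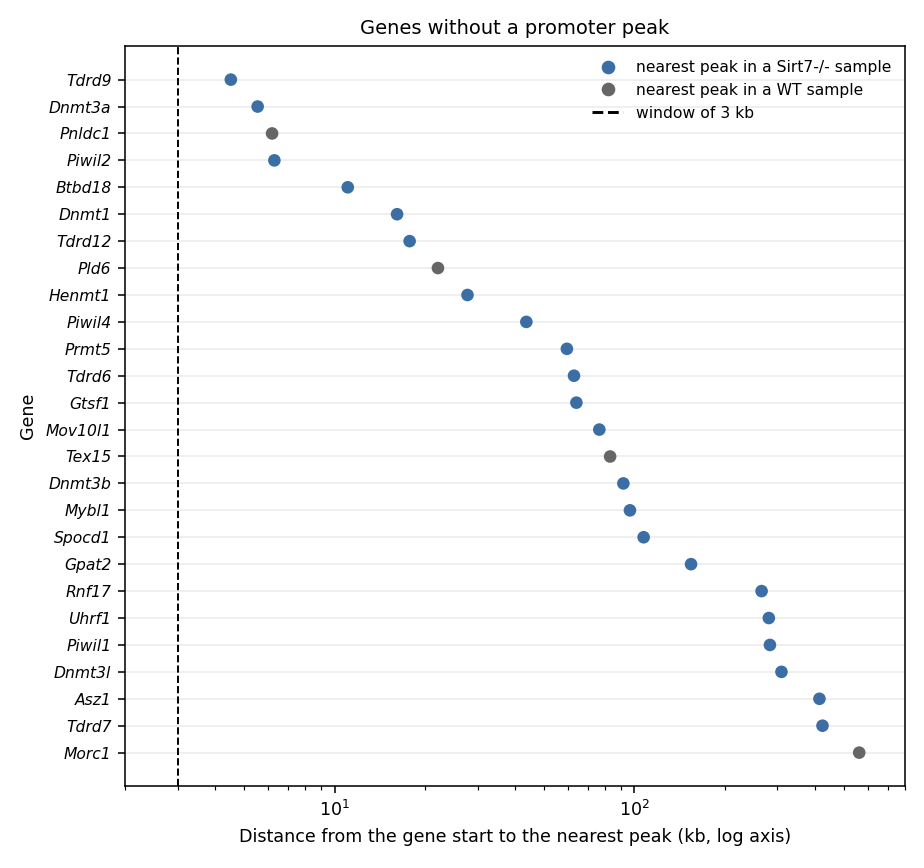
Distance (kb, log axis) from the start of each of the 26 uncalled genes to the nearest peak of any sample, coloured by the genotype of that sample, with the 3-kb window as a dashed line. The points run from 4.51 kb (*Tdrd9*) to 562 kb (*Morc1*).

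The DNA methylation genes, with *Dnmt1* and *Uhrf1* for maintenance and *Dnmt3a*, *Dnmt3b* and *Dnmt3l* for new methylation, had no call. That is 0 of 5, against 19.3% of protein-coding starts in any *Sirt7*-/- sample, too few genes to show a lower rate. The nearest peaks lay 16.2 kb from *Dnmt1*, at the start of *S1pr2*, 91.9 kb from *Dnmt3b*, 281 kb from *Uhrf1* and 310 kb from *Dnmt3l*. *Dnmt3a* was the only uncalled member with a peak inside its gene. This peak, of *Sirt7*-/- replicate 3 alone, was 832 bp wide (rank 951 of 2045, 4.64-fold over input) and lay 5540 bp from the outermost start, but it spanned a further RefSeq start of *Dnmt3a*. Counting every RefSeq start of a gene, which was done after seeing the data, raised the members called in any *Sirt7*-/- sample from 8 to 9 of 34, and the protein-coding genes from 19.3% to 20.3%.

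A RefSeq promoter sequence was found for 25 of 34 members, the exceptions being *Piwil2*, *Pnldc1*, *Ddx39a*, *Tdrd6*, *Rnf17*, *Tex15*, *Spocd1*, *Morc1* and *Mybl1*. The 7 called members with a sequence had a median of 25 CpG dinucleotides in 300 bases, and the 18 uncalled ones 15.5. The same order was seen over all 17492 protein-coding promoters, with medians of 25 for promoters called in any sample and 9 for the rest. Promoters were split into 3 classes of nearly equal size by CpG. With 22 to 65 CpG, 39.8% were called in a *Sirt7*-/- sample, against 18.1% with 7 to 21 and 2.42% with 0 to 6. The members followed with 5 of 9 (*Exd1*, *Morc2a*, *Tdrd5*, *Tdrkh* and *Wdr77*), 2 of 13 (*Fkbp6* and *Tdrd1*) and 0 of 3. The peaks did not always cover the 300 bases in which CpG was counted. They covered 0 bases at *Morc2a*, *Tdrkh* and *Tdrd1*, 43 at *Exd1*, 290 at *Tdrd5* and all 300 at *Fkbp6* and *Wdr77*. The CpG-rich members without a call were *Btbd18*, *Dnmt3a*, *Dnmt3b* and *Henmt1*. Calls refer to the outermost start and CpG to the listed start nearest it, and these can differ. At *Dnmt3a* a peak of *Sirt7*-/- replicate 3 began 119 bp downstream of that listed start. *Dnmt3a* thus counts as uncalled in the classes and medians by its outermost start only. *Piwil1*, *Piwil4* and *Mov10l1*, printed above, had 18, 11 and 20 CpG against 25 at *Wdr77*, 21 at *Fkbp6* and 48 at *Tdrd5*.

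**Figure D5:**
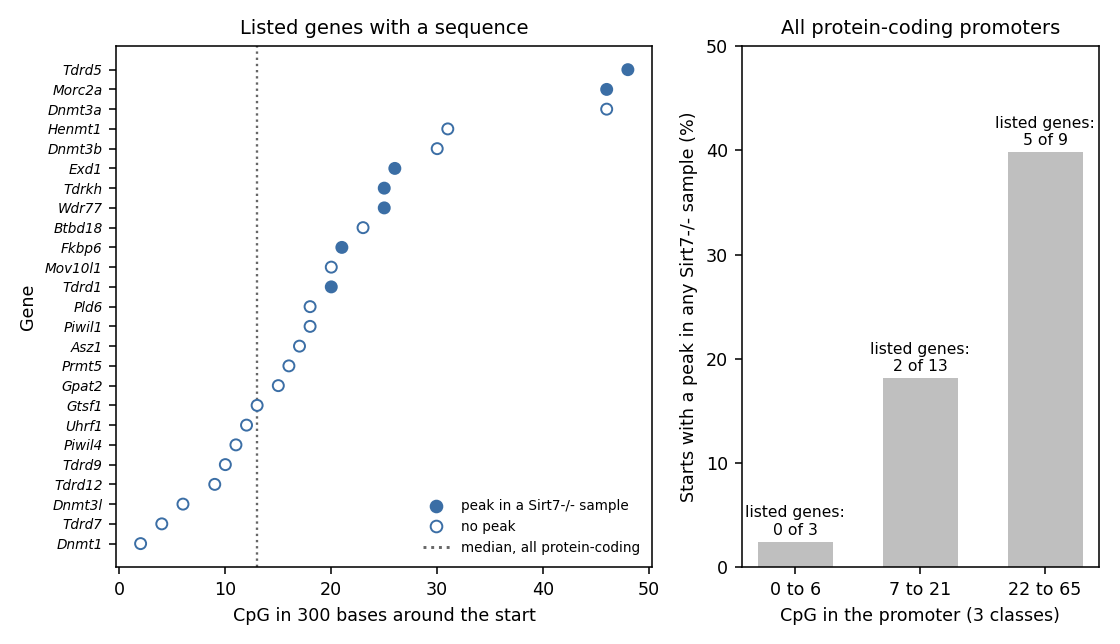
Left, CpG dinucleotides in the 300-base promoter of the 25 listed genes with a sequence, filled where a *Sirt7*-/- sample had a peak within 3000 bp of the outermost start. The dotted line is the median of all protein-coding promoters, 13. Right, share (%) of all protein-coding promoters called in any *Sirt7*-/- sample in 3 classes of CpG, with the count of listed genes called; it rises from 2.42% to 39.8%.

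The E-box CACGTG was present in 7 of 25 member promoters (28.0%) and in 7.91% of all protein-coding promoters. Called and uncalled members both held it. It began 9 bp downstream of the start of *Wdr77*, 11 bp upstream of that of *Tdrd1*, and 101 and 37 bp upstream of the listed start of *Fkbp6*, and it was also found at *Piwil1* and *Tdrd9* (2 matches each), *Mov10l1* and *Pld6*, where no peak was called. The MYB letters were present in 8 of 25 members (32%), against 26.3% of all promoters, and the E2F letters in 4 of 25 (16%), against 15% of all promoters. No motif match overlapped another in these promoters, and *Piwil4* held none. A match is a string of letters and not evidence of binding.

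Of 18 other germ granule and germ cell RNA genes, 6 were called in a *Sirt7*-/- sample (33.3%, against 19.3% of protein-coding starts) and 3 in a WT sample (16.7%, against 5.12%). Without *Sirt7*-/- replicate 2, an alternative chosen after seeing the data, 6 were called in a *Sirt7*-/- sample, against 15.2%. This list was chosen with results of these data known, so its shares are a description. *Ddx6*, a helicase of processing bodies, was called in all 6 samples, with widths of 252, 310 and 444 bp in WT replicates 2, 3 and 4 and of 503, 1173 and 568 bp in the *Sirt7*-/- replicates of the same numbers. The WT widths at *Ddx6* were all below the *Sirt7*-/- widths, in lists whose median widths were 373, 277.5 and 297 bp and 480, 456 and 465 bp. *Tdrd3*, a Tudor gene outside the germ line list, was called in every *Sirt7*-/- sample and never in WT, with widths of 869, 325 and 1119 bp. *Hsp90aa1* was called in 3 *Sirt7*-/- samples and 1 WT sample, *Dicer1*, which cuts small RNA precursors, in 2 and 2, and *Ago2* in 2 and 0.

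Of 13 other retrotransposon silencing genes with a known start, 8 were called in a *Sirt7*-/- sample (61.5%, against 19.3% of all protein-coding starts) and 0 in WT. *Mphosph8*, *Ehmt2*, *Hells* and *Atrx* were called in replicate 2 alone, and *Pphln1* in replicate 4 alone. Without replicate 2, an alternative chosen after seeing the data, 4 of 13 were called, against 15.2%. *Ehmt1*, a histone H3 lysine 9 methyltransferase, and *Spin1*, a reader of histone methylation, were called in all 3 *Sirt7*-/- samples, and *Cbx5*, which encodes heterochromatin protein HP1 alpha, in 2. The peaks of *Spin1* were 1444, 1396 and 1329 bp wide in replicates 2, 3 and 4 and those of *Ehmt1* 314, 228 and 226 bp. The list was made with results of these data known, so its share is a description.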

How the data were processed

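Per the methods of the authors, reads were aligned to mm10 with Bowtie2 2.4.4.1, unique reads without duplicates were kept at a minimum mapping quality of 30, and MACS2 2.2.5 called broad peaks (broad cutoff 0.1) separately for every sample over its matched input. The deposited lists hold the position of each peak and a score, a fold over input, which is a ratio computed by the authors, and 2 columns of significance, the -log10 of p and of q given by the authors. The score was not used, and the other values were used to rank or filter peaks within a list. The 6 input libraries entered through the peak calling only.

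Gene starts came from the RefSeq table of GRCm38.p6 (1 outermost start a gene). Strand came from the RefSeq promoter table for 17492 protein-coding genes and from GENCODE by symbol for 3976, in all 21468 of 21887 (98.1%). *Tasor* was matched by an older symbol, and *Dnmt3c* had no protein-coding start in the table. The genome sequence given was of another build and was not used. Calls were compared by Fisher's exact test per gene, and shares have exact 95% (Clopper-Pearson) intervals. The calling step was tested on simulated peaks. Analyses used SciPy 1.17.1, NumPy 2.4.6 and pandas 2.3.3 under Python 3.11.15, and plots matplotlib 3.10.9.

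The members and lists were chosen with earlier results of these data known. All 34 members are accounted for; genes of other lists are named where called in at least 2 samples. Sequences follow the rule of a call in all 3 *Sirt7*-/- samples plus 3 uncalled members in list order, and *Fkbp6* and *Tdrd5* were added. Width was to be compared at members called in all 6 samples, and there were none. Alternatives were a window of 1000 bp, -log10 q of at least 2, widths of at least 500 bp, the same number of peaks per sample, peak midpoints, a replicate block and each replicate left out. Later additions were every listed start, a common minimum of -log10 p, the nearest start only, and the gene lists without *Sirt7*-/- replicate 2. Cell type markers and silencing genes called in 1 sample were named after their values were seen.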

Additional observations from a re-analysis of the deposited data

How the results depend on the processing

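No member was called in WT, and nearly all alternatives can only remove calls, so that count and the sign of the difference of 4 members could hardly change and show no stability. With the same number of peaks (64, the best by -log10 q) in every sample, the difference was 0, and 0 members were called in any, in at least 2 and in all 3 *Sirt7*-/- samples. Within 1000 bp of the start, 7 members were called in any *Sirt7*-/- sample, against 17.9% of protein-coding starts. At -log10 q of at least 2 there were 6, against 13.7%, and by peak midpoints 8, against 19.1%. These settings left 3 members called in at least 2 and 1 in all 3 *Sirt7*-/- samples. With peaks of at least 500 bp, 3 members were called in any *Sirt7*-/- sample and 1 in at least 2, against 10.4% and 3.37% of protein-coding starts. At a common minimum of -log10 p of 5.99, chosen after seeing the data, these counts were 4 and 1, against 11.9% and 3.13%, and 0 members were called in all 3, against 0.946%. With each peak given only to the nearest start, also chosen after seeing the data, 5 members were called in any *Sirt7*-/- sample, 0 in all 3 and 2 in at least 2, against 15.9%, 1.82% and 5.05%. Over the sets without 1 replicate, the difference ranged from 2.5 (without *Sirt7*-/- replicate 2) to 5, the members called in any *Sirt7*-/- sample from 4 (without *Sirt7*-/- replicate 2) to 8, those called in all remaining *Sirt7*-/- and no WT samples from 1 to 2 (without *Sirt7*-/- replicate 3 or 4), and those called in at least 2 from 1 (without *Sirt7*-/- replicate 2) to 3. Over all protein-coding starts, the share called in any *Sirt7*-/- sample ranged from 15.2% (without *Sirt7*-/- replicate 2) to 19.3%. The share in all remaining *Sirt7*-/- and no WT samples ranged from 2.49% to 4.38%, and was 4.38% and 3.60% without *Sirt7*-/- replicates 3 and 4. The share in at least 2 ranged from 3.38% (without *Sirt7*-/- replicate 2) to 9.01%. The labels do not say whether same-numbered samples were handled together. The correlations of deviations of same-numbered samples over 4238 starts were -0.042, -0.072 and 0.011. With few starts called in WT, these could hardly show a pairing. A replicate block leaves the difference at 4 by construction in this balanced design, so it tests nothing. The cause of these changes was not tested, beyond fewer peaks or samples entering by construction. With the reads left after filtering not given in the sources used here, a start without a peak may carry the mark below the calling threshold.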
